A study of Arabidopsis thaliana with 6 samples.

Results

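Introns of single-intron genes were followed in an Arabidopsis thaliana prmt5 mutant. A member of this set is the sole intron row of a nuclear locus (AT1G to AT5G) in the deposited intron table, is marked as an intron, and is at least 80 and under 500 bases long. The set holds 3016 of 128782 intron rows. The choice used annotation and length, and no counts. A further 448 such loci had a shorter intron, 623 a longer one and 209 a bin marked as a retained intron, and all were left out. Introns of the same lengths in genes with 2 or more introns, 97267 in number, are set beside the members where a comparison is made. Of the members, 2341 interrupt a coding region, 236 a 5' UTR, 75 a 3' UTR and 274 a non-coding transcript. Another 88 could not be matched to a RefSeq intron and 2 differed between transcripts. The median length was 147 bases in the members and 103 bases in the introns of genes with 2 or more introns.

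The libraries came from whole prmt5 mutant plants and whole wild type (WT) plants, both of ecotype Col-0, with 3 libraries per genotype. The labels do not give the prmt5 allele. All seeds were stratified for 4 days at 4 °C in darkness on Murashige and Skoog medium, and the plants were harvested after 9 days in constant white light at 22 °C. The RNA source is labelled as a pool of tissues, and libraries were made from polyadenylated RNA with random hexamers and 12 PCR cycles. Plants exposed to 10 °C were not analysed here. The labels do not say whether the 3 libraries of a genotype came from separate cultures, so p-values measure only the spread between these libraries, which may be technical.

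PRMT5 is an arginine methyltransferase that places symmetric dimethyl marks on proteins, among them Sm proteins, which form the core of the small nuclear ribonucleoproteins of the spliceosome. An intron is recognised through its 5' splice site (the donor), where the U1 and later the U6 small nuclear RNA pair with bases on both sides of the exon end, and through its 3' splice site (the acceptor), which usually ends in AG. In plants, loss of PRMT5 is known for retained introns and for altered circadian rhythms and flowering time. A gene with a single intron needs only one splicing event, so all intron reads counted for the gene lie in that one intron.

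The donors below belong to the single introns with the smallest p among those raised in prmt5. They are shown because donor scores were lower on average in raised than in other tested introns. Each line gives the last 3 exon bases and the first 12 intron bases, 5' to 3', from the TAIR10.1 reference. Capitals mark bases, within the first 9, that differ from the most frequent base of all tested introns at that place. The most frequent bases were aaggtaagt.
ENODL2 (AT4G27520, chr4:13751531-13751632, minus strand, coding region): TCTgtaTAtatcatc
AT4G32190 (chr4:15545115-15545400, plus strand, coding region): GaTgtTTgtttcctt
AT4G23670 (chr4:12333115-12333469, minus strand, coding region): aTggtaTACatttag
AT5G02160 (chr5:426640-426882, plus strand, coding region): CaCgtaaACcactct
GSTU18 (AT1G10360, chr1:3396101-3396485, minus strand, coding region): CaggtTCAtagattg
LHCB2.3 (AT3G27690, chr3:10256151-10256269, plus strand, coding region): CTggtTCCAacctca
AT3G22210 (chr3:7839249-7839335, minus strand, coding region): GaggtTCACtgttat
AT5G48590 (chr5:19698820-19699080, plus strand, coding region): CaggtTCCttttaac
AT5G10830 (chr5:3423881-3424013, plus strand, coding region): GCCgtCagtatttga
AT5G24735 (chr5:8468673-8469019, minus strand, non-coding transcript): GCCgtCTgGtttcta
SIP1 (AT5G58380, chr5:23598735-23599052, minus strand, 5' UTR): CCggtGaTtgtcttg
AT3G61210 (chr3:22659508-22659656, minus strand, coding region): GGggtTTgttttctt

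The donors of the 4 introns without a call among the 5 most highly counted genes are given in the same form, followed by the 3 lowest-scoring named introns without a call and the 2 highest-scoring named introns with one. They are shown because neither set is of one kind.
PSAF, not called (AT1G31330, chr1:11215321-11215583, minus strand, coding region): CaggtTCgtcttcca
PSAL, not called (AT4G12800, chr4:7521637-7522001, plus strand, coding region): aaggtaTCttctttg
LHCB4.1, not called (AT5G01530, chr5:209594-209880, plus strand, coding region): aaggtaaCGccactc
LHCB6, not called (AT1G15820, chr1:5447235-5447449, minus strand, coding region): CTCgtaagtctattc
AT2G22088, not called (chr2:9388541-9388801, plus strand, coding region): CaTgtTTAtcattct
LGT8, not called (AT1G70090, chr1:26402109-26402506, plus strand, 3' UTR): TGTgtaagtcaacaa
AT1G28390, not called (chr1:9966440-9966875, minus strand, coding region): TGAgtaagtcgaggt
AT1G10020, raised (chr1:3270699-3271106, minus strand, coding region): aaggtTagttttccg
HTA10, raised (AT1G51060, chr1:18927137-18927233, plus strand, coding region): GaggtaaTtcctctt

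The whole introns of ENODL2, with the smallest p, and of the light-harvesting genes LHCB2.3 and LHCB2.1 are short enough to print, with the bordering GT and AG in capitals.
ENODL2, 102 bases: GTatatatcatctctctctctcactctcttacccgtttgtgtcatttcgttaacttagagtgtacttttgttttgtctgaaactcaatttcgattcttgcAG
LHCB2.3, 119 bases: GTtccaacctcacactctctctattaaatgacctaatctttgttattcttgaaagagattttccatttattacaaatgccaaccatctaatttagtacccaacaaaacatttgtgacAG
LHCB2.1 (AT2G05100, chr2:1824101-1824185, minus strand), 85 bases: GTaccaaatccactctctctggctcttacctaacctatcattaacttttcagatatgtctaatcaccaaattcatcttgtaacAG
Of 2991 members with a known strand, 2946 had GT and AG at their ends and 24 had a GC donor, among them AT5G53150 (chr5:21556007-21556093, plus strand), a DnaJ protein gene with the donor CaggCaagttgtcga.

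Gene counts per library ran from 41465842 to 67300273 in prmt5 and from 38564256 to 75461631 in WT. PRMT5 itself (AT4G31120) had 34.7, 28.9 and 33.1 CPM (read counts scaled by TMM library size) in prmt5 and 30.2, 28.7 and 31.1 CPM in WT. Its level therefore did not distinguish the labels (log2 change 0.11, edgeR adjusted p 0.30). Of 9 tested intron rows inside it 2 were raised in prmt5, 0 lowered and 7 not called. The most changed of them (chr4:15132630-15132724), picked after its values were seen, stood at 4.66% ± 0.31 of the gene count in prmt5 and 0.36% ± 0.14 in WT (SD, n = 3 each). All 4 shoot markers (RBCS1A, RCA, CAB1 and PSBO1) and all 5 root markers (SCR, SHR, COBL9, EXPA7 and WER) were detected in every library. CAB1 fell by 0.53 and SCR by 0.30 on the log2 scale in prmt5, and EXPA7 rose by 0.44 (edgeR adjusted p 0.017, 0.0027 and 0.012), while the other 6 markers passed no test. Their part in the intron results was not tested.

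Single introns held more reads relative to their genes in prmt5 than in WT. Intron usage here means 100 times the intron count over the count of its gene in the same library. It exceeded 100% in at least 1 library in AT2G41178 and AT3G13404, so the deposited gene counts do not hold all intron reads. Summed over all 3016 members, intron counts were 2.01%, 1.94% and 1.82% of gene counts in the prmt5 libraries and 1.38%, 1.59% and 1.43% in the WT libraries. The groups did not overlap, with 1.93% ± 0.0973 in prmt5 and 1.47% ± 0.11 in WT (SD, n = 3 each), a difference of 0.459 percentage points. Without the 10 members of largest intron count the difference was 0.526 points. In bulk RNA, fewer cells of a type and less RNA per cell cannot be told apart, in the gene count as in the intron count.

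For introns of genes with 2 or more introns, summed intron counts, several introns per gene, were 3.56% ± 0.16 of summed gene counts in prmt5 and 2.44% ± 0.13 in WT (SD, n = 3 each). The prmt5 value was 1.31 times the WT value for single introns and 1.46 times for introns of genes with 2 or more introns. The difference between these 2 ratios was not tested. With the members called raised in the test of single introns left out, the other 2804 members summed to 1.68% ± 0.0676 in prmt5 and 1.54% ± 0.10 in WT. The members left out were picked by the same change in the same libraries, so a smaller difference was bound to follow.

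Single introns were tested where their own mean reached 5 counts and the mean of their gene reached 50 counts, in one edgeR quasi-likelihood fit with all 53291 introns of the table that met the same minimum. Of the 3016 members 1063 met it. The gene mean was under 50 counts for 1376 members, of which 667 had 0 gene counts in every library, and 577 more had a gene above 50 counts and an intron mean under 5. At an adjusted p under 0.05 (Benjamini-Hochberg over all tested introns, two-sided), 212 members (19.9%) were raised in prmt5 and 2 were lowered, while 849 were not called. Over all tested introns 22.2% were called, 21.6% raised and 0.518% lowered. The share of raised members is therefore near the background, and near the 22.1% of the 41259 tested introns of the same lengths in genes with 2 or more introns.

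The shift was broad and mostly modest. The median log2 change of usage was 0.34 over the tested members, 0.37 over all tested introns and 0.39 over the introns of genes with 2 or more introns. The change was positive in 79.3% of the tested members and in 75.6% of all tested introns. In 308 members every prmt5 library lay above every WT library, 29.0% of those tested, beside 30.9% over all tested introns. In 16 members every prmt5 library lay below every WT library, where the share over all tested introns was 2.55%. Median usage of the tested members was 2.53%, 2.34% and 2.11% in the prmt5 libraries and 1.502%, 1.725% and 1.653% in the WT libraries. Per base of intron and per base of the effective gene length that the authors deposited, the median coverage of a tested member relative to its gene was 13.3% in prmt5 and 9.57% in WT.

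**Figure D1:**
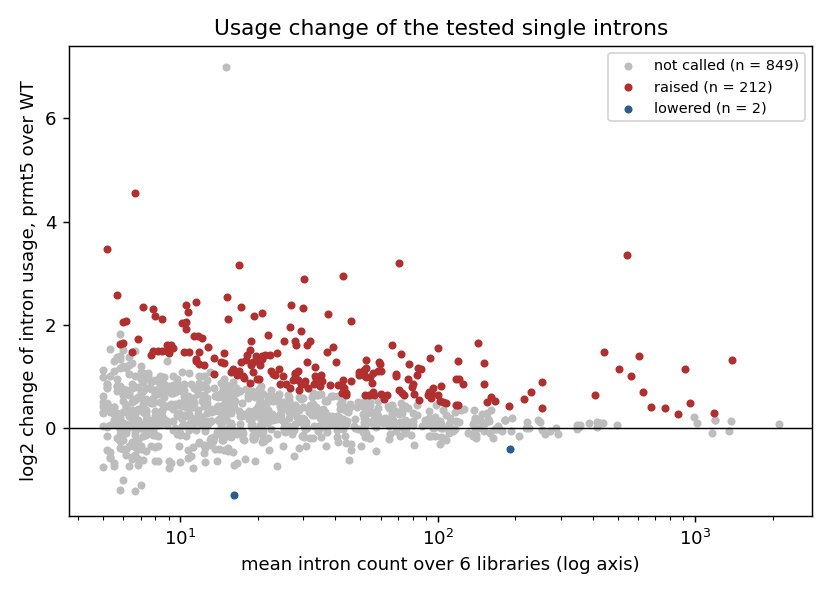
Log2 change of intron usage, prmt5 over WT, against the mean intron count over the 6 libraries (log axis), one point per tested single intron. The 212 raised introns (red) lie above 0 across the whole range of counts and the 2 lowered ones (blue) below it, and most of the 849 introns that were not called (grey) also lie above 0.

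Among the 212 raised members the median log2 change was 1.14, and median usage was 3.21% in prmt5 and 1.31% in WT. The change was at least 2-fold in 137 of them, at least 4-fold in 28 and at least 8-fold in 5. Usage in prmt5 was over 10% in 30. For most raised introns, intron reads were thus a few percent of gene reads. Of the 212, 46 lie in genes that overlap another gene, and 12 in genes with over 10% of 50-base stretches repeated elsewhere, so these values are uncertain. The call held without each library in turn in 102 of them. Relative to the median intron of the table rather than to 0, 92 members were raised and 41 lowered, and with library size in place of the gene count 80 were raised and 142 lowered.

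ENODL2, which encodes an early nodulin-like protein of the cell surface, had the smallest adjusted p. Its intron held 969, 887 and 1163 counts in the prmt5 libraries and 91, 52 and 96 counts in the WT libraries. Usage was 5.05%, 5.69% and 4.50% in prmt5 and 0.47%, 0.56% and 0.47% in WT. Every prmt5 library lay far above every WT library (log2 change 3.36, SE 0.13, edgeR adjusted p 1.2e-22). Junction reads that join its exons numbered 939, 983 and 1625 in prmt5 and 1702, 742 and 1851 in WT, and the groups overlapped. The gene level rose to 369 ± 9.39 CPM in prmt5, against 269.9 ± 30.7 CPM in WT (edgeR adjusted p 0.0031).

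AT4G32190, annotated as a myosin heavy chain-related protein, had usage of 3.21%, 3.23% and 3.61% in prmt5 and 0.48%, 0.44% and 0.22% in WT. The groups were far apart (log2 change 3.20, SE 0.24, edgeR adjusted p 6.0e-14). Its junction held 72, 68 and 94 counts in prmt5 and 158, 54 and 151 counts in WT. Per junction count, the intron was higher in prmt5 by 3.77 on the log2 scale. The level of the gene did not pass the test.

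LHCB2.3 encodes a chlorophyll-binding protein of the mobile antenna of photosystem II. Its usage was 3.19%, 3.14% and 2.88% in prmt5 and 1.36%, 1.45% and 1.33% in WT, on 406 to 1093 intron counts per library. The groups did not overlap (log2 change 1.16, SE 0.10, edgeR adjusted p 3.3e-12). The gene level fell to 642 ± 98.9 CPM in prmt5, against 921 ± 182 CPM in WT (log2 change -0.52, edgeR adjusted p 0.035, 0.00076 to 0.11 over the alternatives). The level call was lost without WT replicate 1 or 3 or without prmt5 replicate 1 or 3. Against library size in place of the gene count, intron counts of LHCB2.3 did not differ (log2 change 0.16, edgeR adjusted p 0.46), and the same setting ended the calls of AT4G23670 and AT5G24735.

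Several of the 12 encode enzymes. GSTU18, a tau class glutathione S-transferase, which joins glutathione to small molecules, had usage of 35.2%, 35.7% and 31.4% in prmt5 and 11.5%, 14.4% and 12.97% in WT. The lowest prmt5 library was far above the highest WT library (log2 change 1.40, SE 0.11, edgeR adjusted p 3.4e-13). Its junction held 87, 74 and 124 counts in prmt5 and 269, 157 and 288 counts in WT, while the gene level did not pass the test, at 47.4 ± 5.84 CPM in prmt5 and 45.9 ± 1.04 CPM in WT. AT3G61210 and AT5G10830 both encode S-adenosyl-L-methionine-dependent methyltransferases. AT3G61210 stood at 21.5%, 22.1% and 19.7% in prmt5 and 7.90%, 10.8% and 8.13% in WT (log2 change 1.27, SE 0.15, edgeR adjusted p 1.5e-08). Its junction counts were 8, 8 and 16 in prmt5 and 81, 27 and 89 in WT. AT5G10830 stood at 17.6%, 20.7% and 21.1% in prmt5 and 5.39%, 6.01% and 7.33% in WT (log2 change 1.65, SE 0.17, edgeR adjusted p 4.2e-10), and overlaps AT5G10840, so its values are uncertain. AT5G48590, annotated as a putative phosphoserine aminotransferase and overlapping AT5G48580, stood at 3.87%, 4.96% and 2.91% in prmt5 and 0.31%, 0.38% and 0.74% in WT (log2 change 2.94, SE 0.30, edgeR adjusted p 2.0e-10).

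AT4G23670, a member of the polyketide cyclase and lipid transport superfamily, carried 1297 to 2001 intron counts per library in prmt5 and 750 to 1290 in WT. Usage was 4.94%, 4.59% and 4.19% in prmt5 and 1.64%, 2.05% and 1.82% in WT (log2 change 1.32, SE 0.10, edgeR adjusted p 6.5e-14). The level of this gene fell to 671 ± 24.3 CPM in prmt5, against 1031 ± 131 CPM in WT (edgeR adjusted p 0.00095). SIP1 encodes a SOS3-interacting protein kinase, a family that acts downstream of calcium sensors, and its intron lies in the 5' UTR. It had 4.41%, 4.21% and 4.39% in prmt5 and 1.08%, 0.86% and 1.06% in WT (log2 change 2.08, SE 0.25, edgeR adjusted p 1.1e-08). Its gene level rose to 32.1 ± 2.11 CPM in prmt5, against 26.3 ± 1.13 CPM in WT (edgeR adjusted p 0.0083).

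The other 3 of the 12 have no described function in the annotation used. AT5G02160 had 4.54%, 4.77% and 4.72% in prmt5 and 1.633%, 1.601% and 1.762% in WT (log2 change 1.48, SE 0.12, edgeR adjusted p 1.9e-13). AT3G22210, which overlaps AT3G22200, had 18.9%, 19.3% and 18.3% in prmt5 and 8.98%, 8.17% and 8.43% in WT (log2 change 1.14, SE 0.11, edgeR adjusted p 6.5e-11). The non-coding AT5G24735 kept the most intron reads of the 12, at 48.7%, 45.1% and 45.9% in prmt5 and 23.0%, 24.6% and 21.4% in WT (log2 change 1.02, SE 0.11, edgeR adjusted p 7.0e-10).

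**Figure D2:**
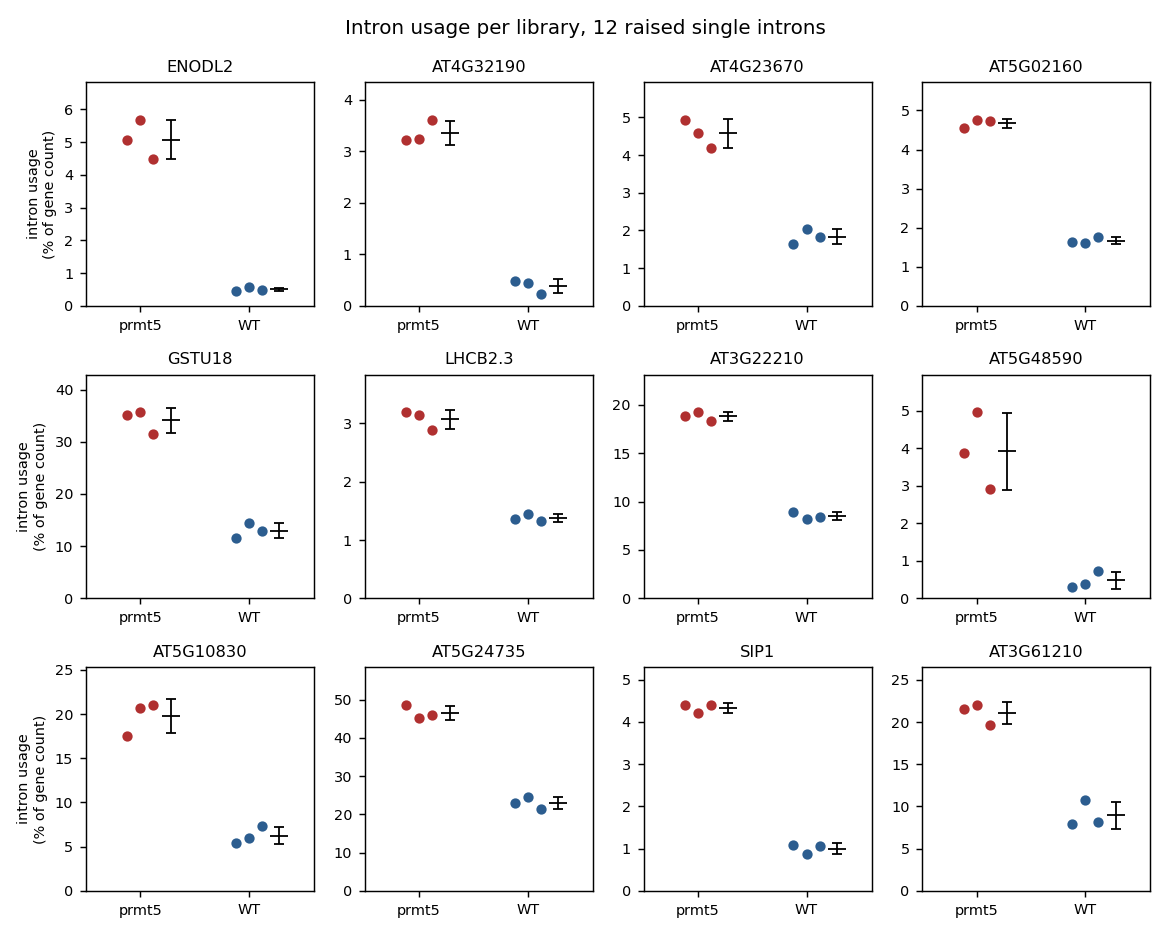
Intron usage (intron count as percent of gene count) in each library for the 12 raised single introns with the smallest p, prmt5 left and WT right, with the mean and SD of 3 libraries beside the points. In each panel the 3 prmt5 libraries lie above the 3 WT libraries, with prmt5 means from 3.07% in LHCB2.3 to 46.6% in AT5G24735.

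The 5 raised members with at least 8-fold change were picked out after their values were seen, and only ENODL2 and AT4G32190 among them had over 5 counts in every WT library. HSFA8, a heat shock transcription factor, had 15, 8 and 16 intron counts in prmt5 and 1, 0 and 0 in WT. AT5G08510, a pentatricopeptide repeat protein gene, had 4, 7 and 18 intron counts in prmt5 and 0, 2 and 0 in WT. FRS8, a FAR1-related sequence protein of a family linked to far-red light responses, had 22, 27 and 44 intron counts in prmt5 and 3, 2 and 3 in WT. Their WT counts are too few to fix the size of the change, and the calls of HSFA8 and AT5G08510 were not kept without every library.

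Both lowered members overlap another gene, so neither value can be assigned to the single intron alone. AT4G01700, a chitinase family gene overlapping AT4G01690, had usage of 0.63%, 1.54% and 0.82% in prmt5 and 1.81%, 2.61% and 2.43% in WT (log2 change -1.29, SE 0.38, edgeR adjusted p 0.011). It rested on 6, 9 and 10 intron counts in prmt5 and 21, 21 and 30 in WT. The call was lost without prmt5 replicate 1 (0.079) or 3 (0.062), with a range of 0.00021 to 0.079 over its alternatives. SCRL7, a gene for a small cysteine-rich protein similar to the pollen ligand of self-incompatibility, overlaps AT1G60990 and had 22.3%, 22.4% and 19.2% in prmt5 and 24.5%, 32.6% and 26.9% in WT (log2 change -0.39, SE 0.14, edgeR adjusted p 0.039). Its call was lost on leaving out any library other than WT replicate 1, within a range of 3.1e-06 to 0.18. At an unadjusted p under 0.05, 7 members were lowered. DESeq2 called 0.

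The most highly counted genes with a single intron belong to the photosynthetic antenna and to photosystem I, and LHCB2.1 alone of the 5 most counted had a call. PSAF, a photosystem I subunit that docks plastocyanin, had usage of 0.92%, 0.84% and 0.78% in prmt5 and 0.79%, 1.05% and 0.88% in WT. The groups overlapped (log2 change -0.09, SE 0.10, edgeR adjusted p 0.62). PSAL, LHCB4.1 and LHCB6 stood at 0.838% ± 0.0295, 0.710% ± 0.0312 and 0.818% ± 0.0849 in prmt5 and at 0.744% ± 0.0495, 0.638% ± 0.0855 and 0.739% ± 0.0420 in WT, and none passed the test (log2 changes of 0.17, 0.16 and 0.15). LHCB2.1, a close copy of LHCB2.3, passed narrowly at 0.958% ± 0.0516 in prmt5 and 0.790% ± 0.0234 in WT (log2 change 0.28, SE 0.10, edgeR adjusted p 0.039, 4.6e-08 to 0.62 over the alternatives). That call was lost on leaving out any library other than WT replicate 2, and 27.1% of the 50-base stretches of the gene recur elsewhere. LHCB6 overlaps AT1G15810.

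In level, 4 of these 5 genes were called lower in prmt5. LHCB2.1 fell to 1216 ± 107 CPM in prmt5, against 2244.5 ± 517 CPM in WT (log2 change -0.88, edgeR adjusted p 0.0023). LHCB6 fell by 0.53 and PSAF by 0.52 on the log2 scale (edgeR adjusted p 0.0064 and 0.0044). PSAL, at log2 change -0.32 with edgeR adjusted p 0.039 (0.0012 to 0.14 over the alternatives), lost its call on leaving out any library other than WT replicate 2. LHCB4.1, with 2789 ± 165 CPM in prmt5 and 3463 ± 478 CPM in WT, did not pass (edgeR adjusted p 0.064). The shoot marker CAB1, another antenna gene, had 10048 ± 358 CPM in prmt5 and 14463 ± 2725 CPM in WT, and its part in these levels was not tested.

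The members with the highest WT usage had no call. Beside AT2G41178, at 164.3% ± 8.70 in prmt5 and 160.1% ± 4.71 in WT, AT3G20900 stood at 73.0% ± 9.26 in prmt5 and 71.1% ± 8.31 in WT. AT2G21188 had 71.6% ± 5.09 in prmt5 and 69.8% ± 4.30 in WT. For AT3G13404 the values were 82.7% ± 31.9 in prmt5 and 69.1% ± 16.6 in WT, and for AT2G22088 74.7% ± 6.29 in prmt5 and 67.5% ± 12.0 in WT. Groups overlapped in each of the 5. All but AT2G21188 overlap another gene, and their junction counts were 13 or fewer per library where an annotated junction was counted. By WT usage, 8.73% of the 126 tested members with WT usage of 10% or more were raised, against 23.4% of the 350 members under 1%. Over all tested introns 21.6% were raised. WT usage is itself one side of the tested change, so this contrast cannot show whether the change depends on it.

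Gene groups were formed from product names, with the results of these data already known. A gene could fall in several groups. Over all tested introns 21.6% were raised and 0.518% lowered, and each count of a group is to be read against these shares. The 30 ribosomal protein genes had no raised or lowered intron among 26 tested (0%, beside 21.6% raised over all tested introns), and a median log2 change of 0.11, where the median of all tested introns was 0.37. PSRP5, a plastid ribosomal protein gene that overlaps AT3G56900, stood at 1.62% ± 0.0663 in prmt5 and 1.62% ± 0.179 in WT. AT1G58983, for a ribosomal protein of the S5 family, stood at 0.794% ± 0.0688 in prmt5 and 0.715% ± 0.0291 in WT, and all of its 50-base stretches recur elsewhere. Of the 7 tested genes listed as histones by product name 1 was raised (14.3%). HTA10, for a histone H2A, had 2.35% ± 0.15 in prmt5 and 1.63% ± 0.25 in WT (log2 change 0.52, edgeR adjusted p 0.019), a call lost without WT replicate 1, prmt5 replicate 2 or prmt5 replicate 3. RAT5, another H2A gene, had 4.91% ± 0.49 in prmt5 and 5.26% ± 0.92 in WT.

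Cytochromes P450, which oxidise hormones, pigments and defence compounds, often have a single intron and made up 62 members. Of 27 tested 8 were raised (29.6%, beside 21.6% over all tested introns) and 0 lowered, with a median log2 change of 0.50. CYP81F4, which acts on indole glucosinolates, had 2.04%, 2.24% and 1.88% in prmt5 and 0.93%, 1.35% and 1.05% in WT (log2 change 0.91, SE 0.14, edgeR adjusted p 1.7e-06), and overlaps AT4G37409. CYP706A6 had 2.69%, 2.57% and 2.50% in prmt5 and 1.24%, 1.25% and 1.48% in WT (log2 change 0.95, SE 0.16, edgeR adjusted p 9.0e-06), with 11.9% of its stretches repeated elsewhere. Both introns were separated between the genotypes in every library. Among glycosyltransferases, which attach sugars to small molecules and cell wall polymers, 4 of 16 tested were raised (25%). UGT78D1, an enzyme of flavonol glycoside synthesis, had 1.87% ± 0.192 in prmt5 and 1.204% ± 0.169 in WT (log2 change 0.64, edgeR adjusted p 0.0049, 0.0023 to 0.99 over the alternatives). Its call was lost with the annotated junction count as offset, with the median change removed and without the gene offset. LGT8, with its intron in the 3' UTR, had 10.95% ± 1.66 in prmt5 and 10.96% ± 1.11 in WT.

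Among 99 genes listed as transcription factors by product name 35 were tested and 8 raised (22.9%, near the 21.6% over all tested introns), with a median log2 change of 0.46. AT1G06760 was listed for its product name alone, as a winged-helix DNA-binding protein, and overlaps AT1G06750. Its intron had 1.10% ± 0.104 in prmt5 and 0.564% ± 0.0292 in WT (log2 change 0.95, edgeR adjusted p 0.00011). The myb-like gene AT1G35516 was also raised and is described with its junctions. Of 22 LOB domain genes, which regulate organ boundaries and nitrogen responses, 4 were tested and 2 raised, too few to read a share from. LBD37 had 2.29% ± 0.19 in prmt5 and 1.62% ± 0.47 in WT (log2 change 0.55, edgeR adjusted p 0.031), a call lost without WT replicate 1 or 3 or prmt5 replicate 1 or 3, and LBD39 had 3.61% ± 0.56 in prmt5 and 2.60% ± 0.22 in WT, which did not pass. The RING, U-box and F-box list, largely of parts of ubiquitin ligases, held 104 members, 21 tested and 5 raised (23.8%, also near it), with a median log2 change of 0.74. AT5G37930 had 14.2% ± 1.10 in prmt5 and 8.55% ± 1.95 in WT (log2 change 0.74, edgeR adjusted p 0.0041), a call lost without WT replicate 3 (0.072, in a range of 0.0026 to 0.79), and AT3G18320, with 37.3% of its stretches repeated, had 35.05% ± 3.25 in prmt5 and 32.2% ± 3.32 in WT.

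Of 31 tested protein kinase genes 5 were raised (16.1%, beside 21.6% over all tested introns), and the 2 with most intron counts, AT1G28390 (13.1% ± 1.52 in prmt5 and 16.0% ± 1.85 in WT, overlapping AT1G28380) and AT1G66910 (6.91% ± 1.87 in prmt5 and 5.54% ± 0.492 in WT, with 14.7% of its stretches repeated), were not called. Of 28 tested pentatricopeptide and tetratricopeptide repeat genes, many of which act on organelle RNA, 6 were raised (21.4%, near that share). EMB3101, with its intron in the 5' UTR, had 5.57% ± 0.86 in prmt5 and 2.37% ± 0.58 in WT (log2 change 1.23, edgeR adjusted p 0.0063), a call lost without WT replicate 3. AT3G24000 had 12.0% ± 3.23 in prmt5 and 10.6% ± 2.42 in WT. Of 16 tested genes listed as chaperones by product name 6 were raised (37.5%). The name also takes in the heat shock transcription factor HSFA8, which was raised and is not a chaperone. AT5G53150, the DnaJ gene with the GC donor, had 7.36% ± 0.21 in prmt5 and 6.81% ± 1.26 in WT. AT5G54660, a small heat shock protein gene, had 18.5% ± 4.47 in prmt5 and 19.2% ± 6.32 in WT, and neither was called.

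Of the 7 tested genes listed as redox proteins by product name 3 were raised (42.9%, beside 21.6% over all tested introns). TRX-M4, a chloroplast thioredoxin, had 0.449% ± 0.0297 in prmt5 and 0.311% ± 0.0836 in WT (log2 change 0.57, edgeR adjusted p 0.042), a call lost on leaving out any library other than WT replicate 2, and THX had 0.788% ± 0.0629 in prmt5 and 0.777% ± 0.0842 in WT. Of 9 tested lipid transfer protein genes 1 was raised (11.1%), LP1, at 0.298% ± 0.0121 in prmt5 and 0.193% ± 0.0212 in WT (log2 change 0.64, edgeR adjusted p 0.0082), a call lost without WT replicate 3 (0.070, in a range of 0.0047 to 0.37). LTP5 had 0.395% ± 0.0727 in prmt5 and 0.463% ± 0.206 in WT. RNA-binding and splicing proteins held 18 members, 8 tested and 1 raised (12.5%). The raised one was AT4G18372, a small nuclear ribonucleoprotein family gene with its intron in the 5' UTR, at 28.5%, 26.7% and 24.0% in prmt5 and 8.73%, 7.46% and 15.5% in WT (log2 change 1.24, SE 0.22, edgeR adjusted p 3.6e-05). It overlaps AT4G18370. YLS8, a component of the U5 small nuclear ribonucleoprotein, had 1.29% ± 0.28 in prmt5 and 1.19% ± 0.22 in WT and was not called. By its product name YLS8 was also counted in the redox list. Across the 13 lists, with 235 tested members in sum, 0 introns were lowered, near the 0.518% over all tested introns.

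The donors of raised single introns were on average further from the common sequence. A score summed, over the last 3 exon and first 6 intron bases, the log2 odds of each base among tested introns against its frequency in the nuclear genome, so that a higher score means a donor closer to the common sequence. The mean score was 6.05 ± 2.09 over 211 raised members and 7.09 ± 2.44 over 849 other tested members (SD over introns, which are not replicates). The last exon base was G in 74.9% of the raised members and 82.7% of the others, and the fifth intron base was G in 37.0% of the raised members and 48.4% of the others. By quartiles of the score in introns of genes with 2 or more introns, 30.7%, 26.1%, 17.6% and 9.68% of single introns were raised from the weakest to the strongest quartile. The same quartiles gave 42.5%, 24.1%, 14.9% and 6.73% in introns of genes with 2 or more introns. In both sets the share fell with each step up in score, and differences between the sets were not tested. The median log2 change of usage did not fall at each step in single introns, at 0.412, 0.413, 0.288 and 0.292. In introns of genes with 2 or more introns it was 0.835, 0.476, 0.312 and 0.172. In protein-coding genes alone the shares of raised single introns were 36.4%, 26.8%, 17.5% and 9.72%. The median log2 changes there were 0.535, 0.439, 0.296 and 0.299.

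The donors of ENODL2, AT5G24735 and AT5G10830 printed above had scores of 0.94, -0.29 and 1.88, against an upper edge of the weakest quartile at 5.34. GSTU18, also raised, had a score of 7.06, in the third quartile. PSAF, PSAL, LHCB4.1 and LHCB6, not called, had scores of 9.09, 7.98, 7.61 and 5.34. Single introns of both kinds spanned the scale. Of 27 raised introns named here 7 lay in the weakest quartile and 4 in the strongest, with AT1G10020 at 9.34 and HTA10 at 8.97. The call of AT1G10020 was lost in 9 of 13 alternatives and that of HTA10 in 6 of 14. Of 26 named introns without a call 4 lay in the weakest quartile and 6 in the strongest, with AT2G22088 at 3.00, LGT8 at 3.43 and AT1G28390 at 3.51. Among members with G at both the last exon and the fifth intron base 11.6% of 344 were raised. With G at the exon base alone it was 22.9% of 516, with G at the intron base alone 26.2% of 145, and with neither 27.3% of 55. In introns of genes with 2 or more introns the corresponding shares were 12.3%, 21.1%, 35.4% and 51.5%. The size of the change did not follow the shares in members. Their median log2 change of usage in these classes was 0.28, 0.40, 0.41 and 0.12, lowest with neither G. It was 0.25, 0.40, 0.70 and 1.07 in introns of genes with 2 or more introns. The median of the mean intron count in these classes of members was 16.7, 19.3, 24.2 and 30.7. The depth of the introns moved with the calls as well. The median of the mean intron count was 32.0 in raised members and 16.2 in the others, and 8.16% of members with 5 to 10 counts were raised, against 31.3% of those with 50 or more. Within the score quartiles of single introns the median count was 27.2, 20.7, 18.8 and 15.6 from the weakest to the strongest, and its part in the order of shares was not tested.

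**Figure D3:**
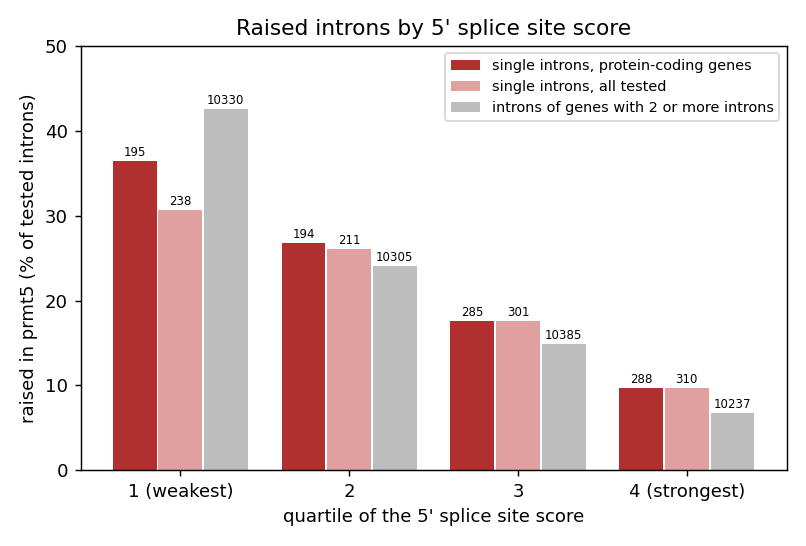
Percent of tested introns raised in prmt5 by quartile of the 5' splice site score, for single introns in protein-coding genes (dark red), all tested single introns (light red) and introns of genes with 2 or more introns (grey), with the number tested above each bar. The share falls from 36.4%, 30.7% and 42.5% in the weakest quartile to 9.72%, 9.68% and 6.73% in the strongest.

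By position and length the shares lay closer together. Introns of coding regions were raised in 167 of 788 tested (21.2%), those of 5' UTRs in 28 of 134 (20.9%), those of 3' UTRs in 6 of 40 (15%) and those of non-coding transcripts in 6 of 61 (9.84%). By length, 19.4% of members under 100 bases, 22.6% of those from 100 to under 150, 19.2% from 150 to under 300 and 19.5% from 300 bases upward were raised. Introns of genes with 2 or more introns gave 18.2%, 23.6%, 25.5% and 25.8% in these classes. At the lower limit of length, 0 of 12 tested members of 80 bases were raised, while 5 of 11 tested loci of 79 bases, just outside the set, were. At the upper limit 0 of the 2 members that were 1 base short of 500 bases were tested, and the 1 tested locus of 500 bases was not raised.

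Genes with a single intron were more often lower than higher in level. Of 1878 member genes tested for level with edgeR, 188 (10.0%) were higher in prmt5 and 349 (18.6%) were lower, where 33.3% of all 22509 tested genes were called, 17.9% higher and 15.4% lower. The median log2 change of level was -0.07 over member genes and 0.01 over all genes. Lower calls outnumbered higher calls under every scaling tried, and without WT replicate 3 the higher calls numbered 116. Of the 212 genes with raised usage, 27 were higher, 60 were lower and 125 were not called in level. Raised introns made up 24.4% of 246 tested members whose gene was lower, 23.1% of 117 whose gene was higher and 17.9% of 700 whose gene was not called. Intron usage therefore rose in genes of either direction.

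**Figure D4:**
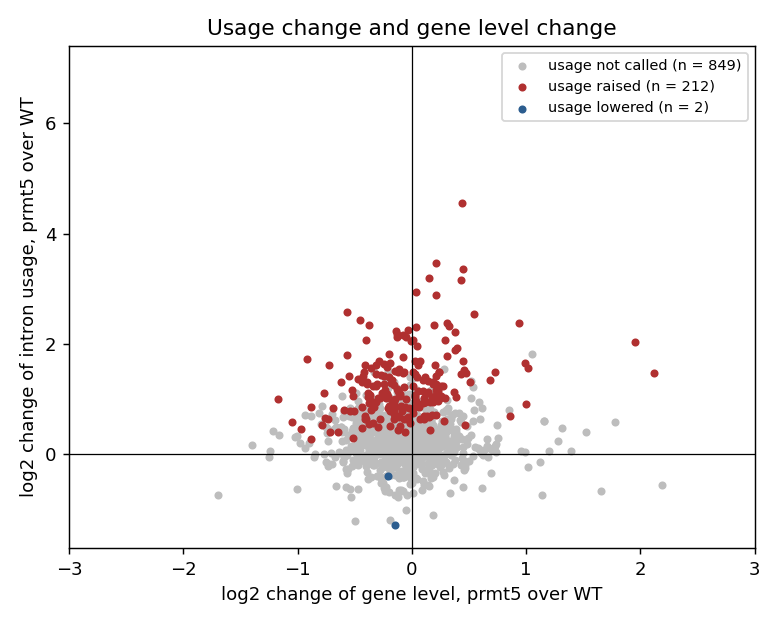
Log2 change of intron usage against log2 change of gene level, prmt5 over WT, one point per tested single intron (1 intron lies outside the horizontal axis, which ends at 3). Raised introns (red) occur on both sides of 0 in gene level, with 27 in genes called higher and 60 in genes called lower.

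The 3 higher and 3 lower genes of smallest p in level are described next. AT4G05380, a P-loop nucleoside triphosphate hydrolase gene, had 361, 235 and 397 gene counts in prmt5 and 4, 2 and 2 in WT. Its intron had 30, 34 and 26 counts in prmt5 and 0 in every WT library, so no change of usage is given. AT3G62460, annotated as a putative endonuclease or glycosyl hydrolase with 19.3% of its stretches repeated, rose to 20.4 ± 0.34 CPM in prmt5, against 7.16 ± 1.24 CPM in WT (log2 change 1.52, edgeR adjusted p 3.8e-06). Its intron usage did not pass the test, at 1.95% ± 0.19 in prmt5 and 1.45% ± 0.55 in WT. AT5G10830, named above for its intron, rose to 22.5 ± 1.25 CPM in prmt5, against 11.3 ± 0.52 CPM in WT (log2 change 0.99, edgeR adjusted p 4.4e-06). Here level and intron usage rose together.

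Among the lower genes, AT5G39150, of the cupin superfamily, had 5, 10 and 10 counts in prmt5 and 186, 121 and 205 in WT (log2 change -4.22, edgeR adjusted p 2.4e-06), but 86.3% of its stretches recur elsewhere. AT1G45545, which overlaps AT1G45474, fell to 4.28 ± 0.34 CPM in prmt5, against 11.2 ± 1.01 CPM in WT (log2 change -1.37, edgeR adjusted p 6.3e-06). AT1G10020, a DUF1005 family gene, fell to 18.0 ± 0.98 CPM in prmt5, against 33.9 ± 2.31 CPM in WT (log2 change -0.92, edgeR adjusted p 6.7e-06). Its intron was called raised on 13, 7 and 5 counts in prmt5 and 5, 1 and 10 counts in WT (edgeR adjusted p 0.022, 0.0060 to 0.74 over the alternatives), a call lost without WT replicate 1 or 2 or prmt5 replicate 1 or 2. AT5G39150 and AT1G45545 had too few intron counts to be tested.

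Junction reads gave a second view of the same introns. Junctions that share a donor or an acceptor with the annotated junction of a member, with means of at least 5 counts, formed 35 clusters with 74 junctions. Of these 10 (13.5%) changed their share of the cluster in prmt5, 7 raised and 3 lowered, in 8 clusters (edgeR, Benjamini-Hochberg over all 8106 tested junctions, of which 5.9% were called). Of the 10, 6 are not annotated. The shares of 4 members with the smallest p follow, and the other calls were in AT2G04800, AT2G27228, AT2G43530 and PRPL28.

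The donors used in 3 of these clusters are printed in the form used above, because prmt5 and WT libraries divided their reads between them. The junctions of each gene share the acceptor.
AT2G38870, annotated donor, score 5.92, chr2:16236740-16237031, minus strand: CTAgtaagtttttgt
AT2G38870, unannotated donor, score 8.66, chr2:16236740-16237105, minus strand: aaggtGagCatacaa
AT5G24735, annotated donor, score -0.29, chr5:8468673-8469019, minus strand: GCCgtCTgGtttcta
AT5G24735, unannotated donor, score 5.20, chr5:8468673-8469014, minus strand: CTggtTTCtactttt
AT1G35516, annotated donor, score 4.08, chr1:13078930-13079304, plus strand: aaggtCTAGagtttc
AT1G35516, unannotated donor, score 5.74, chr1:13078268-13079304, plus strand: CaAgtaaTttccttt

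In 6 of the 8 clusters with a call the junctions differed in donor. In 6 of these 6 the donor with the largest gain of share in prmt5 scored higher than the one with the largest loss. This comparison was made after the calls were seen. It was not made over the other clusters of the table, so the count has no background share. Only in AT1G35516 were both compared junctions called. The losing junction of AT2G04800 held 4, 1 and 7 counts in prmt5. The scores of the gaining and the losing donor were 6.43 and 5.18 in AT2G04800, 5.11 and 3.80 in AT2G27228 and 8.02 and 4.06 in AT2G43530, where only the losing junction was called. In AT1G35516 one further donor scored 6.17, above both printed ones, and did not gain share. AT2G38870 encodes a serine protease inhibitor of the potato inhibitor I type. Its unannotated donor, which makes an intron of 366 bases in place of 292, took 13.9%, 11.4% and 14.0% of the cluster in prmt5 and 3.04%, 4.40% and 4.19% in WT. The counts were 67, 39 and 73 in prmt5 and 14, 12 and 23 in WT (log2 change of share 1.77, edgeR adjusted p 5.4e-06). The annotated intron itself was also raised in usage, with 3.30%, 3.83% and 2.67% in prmt5 and 1.35%, 1.66% and 1.79% in WT (log2 change 1.01, SE 0.22, edgeR adjusted p 0.00056).

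In AT5G24735 the unannotated donor lies inside the annotated intron and gives an intron of 342 in place of 347 bases. It took 45.3%, 29.4% and 37.6% of the cluster in prmt5 and 24.0%, 23.6% and 18.6% in WT (log2 change of share 0.79, edgeR adjusted p 0.0077). This call was lost without WT replicate 3 (0.11) or prmt5 replicate 1 (0.12), within a range of 0.0059 to 0.12. The annotated junction held 82, 77 and 106 counts in prmt5 and 376, 204 and 425 counts in WT.

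AT1G35516, the myb-like gene, nearly lost its annotated junction. The junction held 0, 0 and 1 counts in prmt5 and 64, 25 and 56 counts in WT. Its share of the cluster was 1.96% ± 3.40 in prmt5 and 45.9% ± 5.13 in WT (SD, n = 3 each, edgeR adjusted p 0.00070, 0.00053 to 0.021 over the alternatives). The unannotated donor, for an intron of 1037 bases, had 6, 12 and 9 counts in prmt5 and 23, 20 and 32 in WT, and the deposited table assigns this junction to the neighbouring AT1G35515. The junction of the further donor, of 389 bases, had 1, 3 and 7 counts in prmt5 and 37, 15 and 38 in WT and was not called. The prmt5 shares thus rest on few counts. The 1037-base junction had a larger share in prmt5, 72.9% ± 17.5 against 25.8% ± 7.40 in WT, on fewer counts. It was called at edgeR adjusted p 0.018 (0.010 to 0.15 over the alternatives), a call lost without WT replicate 1 or 3 or prmt5 replicate 1 or 2. Intron usage stood at 62.5%, 59.8% and 60.3% in prmt5 and 41.6%, 45.3% and 44.0% in WT (log2 change 0.48, SE 0.10, edgeR adjusted p 0.00018), and the gene level fell to 28.2 ± 1.96 CPM in prmt5, against 38.2 ± 1.54 CPM in WT (edgeR adjusted p 0.00067).

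In AT1G53785 the choice lay between acceptors, from one donor shared with the overlapping gene AT1G53780. The annotated junction of the single intron, 91 bases, took 20.9%, 22.1% and 25.7% in prmt5 and 53.8%, 42.3% and 50.7% in WT (log2 change of share -1.10, edgeR adjusted p 0.0012). The junction annotated in AT1G53780, 334 bases, took the rest. Because the gene pair overlaps, the reads cannot be assigned to one of them.
The last 20 intron bases and the first exon base, with AG in capitals, were as follows.
AT1G53785, acceptor of the 91-base intron, chr1:20077989-20078079, minus strand: tgctcgcgaatcttggtcAGg
AT1G53785, acceptor of the 334-base intron, chr1:20077746-20078079, minus strand: aattgccttccaccgttcAGt

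**Figure D5:**
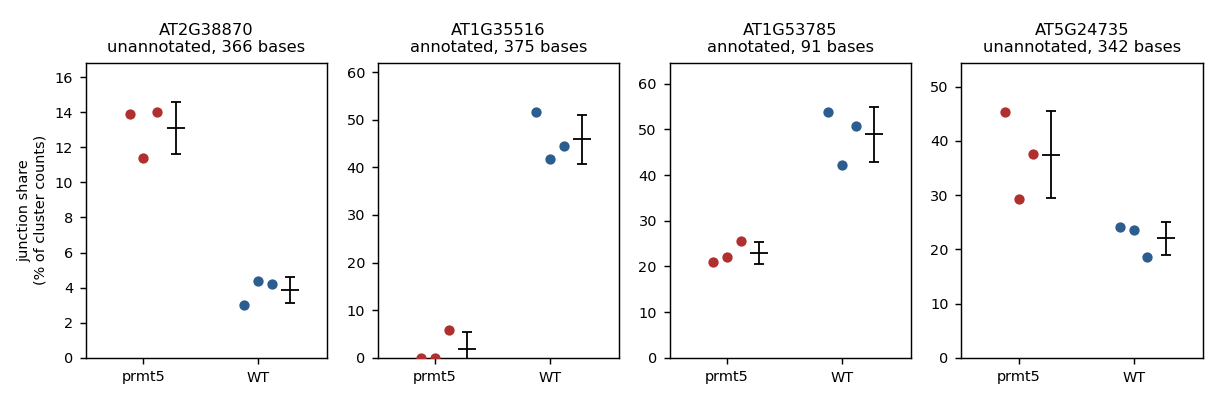
Share of cluster counts of one junction per gene in each library, prmt5 left and WT right, with the mean and SD of 3 libraries, for the 4 single introns with the called junction of smallest p. The share is higher in prmt5 for the unannotated junctions of AT2G38870 and AT5G24735, and lower for the annotated junctions of AT1G35516, near 0% in prmt5, and AT1G53785.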

How the data were processed

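Whole prmt5 and WT plants were profiled by RNA-seq, with groups and replicate numbers from the sample titles. The deposited tables hold whole-number read counts per gene, exon bin, intron row and splice junction, made by the authors and not normalized. Per the submitters' processing notes, reads were handled with STAR and TAIR10. Sources used here do not name the counting program, its strand setting or the read length. Exon bins were not used. Coordinates fit TAIR10.1, where 98.5% of 110931 annotated junctions began with GT and ended with AG, against 0% after a shift of 1 base. RefSeq annotation of that assembly, matched for 2983 members, gave names and positions. No pair of libraries of one genotype agreed within sampling noise (chi-square per degree of freedom 12.7 to 31.9).

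Tests of intron counts used edgeR 4.0.16 under R 4.3.3 (robust quasi-likelihood, genotype as sole term), with the log of the gene count plus 0.5 as offset. Gene counts used TMM scaling and the default filter, junctions diffSpliceDGE within clusters of at least 2 junctions. SE is the log2 change over the root of the F statistic. Values are mean ± SD. Tests were run across each whole table. On simulated data with one dispersion for all features, 56.0% of 200 introns changed by 1.5 on the log2 scale were recovered among 53291. For junctions changed by 1.5 it was 59.5% of 200 among 8106, and for genes changed by 1 it was 93.5% of 199 among 22400. Of the calls made there, 4.27% of introns, 9.85% of junctions and 4.62% of genes were not among those changed. Few features were changed there, and introns in random directions, unlike the broad rise of usage in the data. These rates therefore need not hold for the data. The donor score used 50683 introns. DESeq2 1.42.0, limma-voom 3.58.1, other offsets, scalings and filters, removal of the median change, and leaving out each library or overlapping genes were alternatives.

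Members and gene lists were chosen with earlier results of these data known. Named members are the 12 raised and up to 8 lowered introns of smallest p, the 2 of largest intron count per list with at least 3 tested members, the 5 of largest gene count and the 5 of highest WT usage, the 4 with a called junction of smallest p, and the 3 higher and 3 lower genes of smallest p in level.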

Additional observations from a re-analysis of the deposited data

How the results depend on the processing

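Reads carry no molecular identifiers, the strand setting is unknown, and introns with few counts could be called only for large changes. Of the 212 members raised, 40 were raised under every alternative, and 161 of the 210 testable ones also with the annotated junction count as offset. The count raised was 136 with DESeq2, 92 with the median change removed, 80 without the gene offset, and 145 to 215 without one library. Without the gene offset, 72 of the 212 were higher, 9 lower and 131 not called. The median change of all introns was then -0.02. The count lowered, 2, was 0 with DESeq2 or without overlapping genes, 1 with limma-voom or an intron mean of at least 20, 41 with the median removed, 142 without the gene offset, and 1 to 3 without one library. In gene level, 116 to 207 genes were higher and 259 to 368 lower without one library. The 7 raised junctions became 1 to 6, and the 3 lowered ones 2 to 3, without one library, and 7 were lowered with the cluster total as offset. Same-numbered libraries did not deviate together (correlations -0.17, -0.17 and -0.11 in gene level), so the numbers do not pair them. The largest values in gene level were for prmt5 replicate 1 with WT replicate 2 (0.23), 2 with 3 (0.22) and 3 with 1 (0.20). In intron usage the same pairs had 0.033, -0.0015 and 0.021. No fit blocked on these pairs, so a pairing by them was not tested. With the replicate number as a block, 191 introns were raised and 1 lowered, and 4 junctions were raised and 3 lowered. Of 1085 recomputations of 86 single values, 955 kept direction and side of the threshold, 95 lost a call, 15 gained one and 20 reversed. Log2 changes of usage reversed without the gene offset in PSRP5 (-0.68), LBD37 (-0.29), AT1G35516 (-0.42), TRX-M4 (-0.25), THX (-0.72), LP1 (-0.57), AT3G24000 (-0.81), HTA10 (-0.14), LHCB4.1 (-0.62), LHCB6 (-0.86), PSAL (-0.63), LHCB2.1 (-1.09), AT2G41178 (-1.08), AT3G20900 (-0.70), AT2G21188 (-1.06), AT3G13404 (-1.68) and AT2G22088 (-0.59), and with the median removed in PSRP5 (-0.37), LHCB2.1 (-0.092) and AT2G41178 (-0.34). Both settings change what usage is measured against, and the cause of the other shifts was not tested.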
